A study of Homo sapiens with 32 samples.

Results

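The delayed genes are 113 of the 25498 genes in the deposited tables whose RNA was well above that of untreated cells after 4 hours of EGF and of NRG-1 and little or not raised after 1 hour of either. They were chosen by measured values. A gene was taken when its group mean of TPM (a level corrected for transcript length and scaled to the library total) plus 0.5 was at least 2.5 times that of CSS at 4 hours of both ligands and below 1.5 times that of CSS at 1 hour of both, with a mean of at least 1 TPM at EGF 4 h. Genes of several families, recognised by their symbols, were left out by the same rule. The values at 1 hour and 4 hours relative to CSS are therefore a description of the genes and carry no test here.

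Growth factors act on cells in waves of transcription. When EGF or NRG-1 binds receptors of the HER family, kinase cascades such as the ERK pathway first switch on immediate early genes, many of which encode transcription factors and need no new protein. A later wave, often called delayed or secondary response genes, follows once those factors and other slower steps have acted, and it commonly includes receptors, adaptors, metabolic enzymes, and structural proteins.

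The RNA came from LNCaP, a prostate cancer cell line grown from a lymph node metastasis, whose growth depends on androgen. For 1 group the medium held whole fetal bovine serum (FBS). In the remaining 7 it held charcoal-stripped serum (CSS), which is depleted of steroid hormones, and those cells were either left untreated (the group called CSS) or given EGF or NRG-1 at 100 ng/mL for 5 minutes, 1 hour, or 4 hours. Each of the 8 groups had 4 libraries, of which replicates 1 and 2 were made in batch 1 and replicates 3 and 4 in batch 2. A single cell line was used, and the sources used here do not say whether the libraries came from separate cultures, so that *P* values measure the spread between these libraries, which may be technical.

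The expected counts of the 32 libraries summed to between 63822654 and 92401724. Of 13 luminal prostate markers, 12 were at 1 TPM or more in CSS, whereas the summed level of 5 leukocyte markers lay between 0.04 and 0.27 TPM over all libraries and that of 4 basal markers between 0.01 and 2.18 TPM. Of 6 fibroblast markers and of 4 endothelial markers, 1 each was at 1 TPM or more in CSS. Their summed levels lay between 1.91 and 5.8 TPM and between 0.72 and 3.12 TPM. Replicate 4 of NRG-1 4 h was the lowest of its group for 103 of the 113 genes, with a median of 0.702 times the group mean, and replicate 4 of EGF 4 h was the lowest for 86, with a median of 0.826. Results that compare EGF with NRG-1 at 4 hours are given with and without that NRG-1 library. In bulk RNA, a change in the share of responding cells and a change in the RNA of each cell cannot be told apart.

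Of the 178 genes that met the limits at 4 hours before any was left out by symbol, 122 (68.5%) were below 1.5 times CSS at 1 hour of both ligands, 56 were at or above it with at least 1 ligand, and 40 with both. The symbol rule then removed 9 of the 122 (*DUSP9*, *EPHB6*, *ETV4*, *ETV5*, *ITGA2*, *LAMB3*, *LAMC1*, *SPRED1*, and *TIMP1*). The remaining 113 had a median of 3.76 times CSS at EGF 4 h, with quartiles of 3.22 and 5.47, and a median of 3.27 times at NRG-1 4 h, with quartiles of 2.85 and 4.64. At 1 hour the medians were 1.05 times with EGF and 0.983 times with NRG-1, and at 5 minutes they were 1.01 and 1.03. The rule allows a rise of less than 1.5 times at 1 hour, and some genes had one. In the fit against CSS, 10 of the 113 were higher at EGF 1 h on an adjusted *P* value below 0.05 (*ATP1B1*, *C1orf210*, *EGLN3*, *HOMER1*, *SYTL2*, *TMEM158*, *LRRC73*, *RELB*, *KLHL41*, and *EMP1*) and 6 at NRG-1 1 h (*ATP1B1*, *C1orf210*, *NIPAL1*, *TMEM158*, *LRRC73*, and *RELB*), given as a description since the rule used these values. Of these, *EMP1* alone was also past a log2 change of 1, at EGF 1 h. The 10 and 6 were 8.85% and 5.31% of the 113. Among all 16995 genes tested, 1020 were higher at EGF 1 h and 756 at NRG-1 1 h on the same limit.

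**Figure D1:**
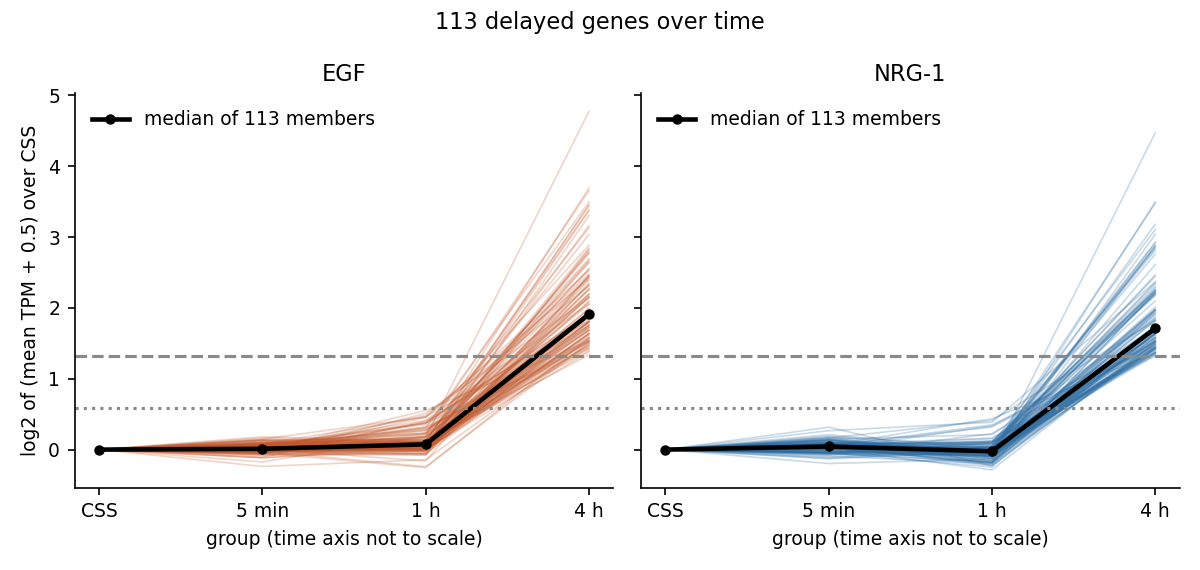
Mean level of each of the 113 genes relative to CSS (log2 of mean TPM plus 0.5 over that of CSS, n = 4 libraries per group) at 5 min, 1 h, and 4 h of EGF (left) and NRG-1 (right), with the median in black and the rule's limits as dotted (1.5 times) and dashed (2.5 times) lines. The medians stayed near 1 time up to 1 h (1.05 with EGF and 0.983 with NRG-1) and reached 3.76 and 3.27 at 4 h, a shape that the rule itself selected.

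The genes just inside and just outside the limits were close to each other. At 4 hours, the lower of the 2 ratios was 2.51 in *SFMBT2*, 2.52 in *KLHL41*, and 2.53 in *LIPH*, which were taken, and 2.49 in *PDLIM7* and *EPS8L2* and 2.48 in *B3GALNT2*, which were not. At 1 hour, the higher of the 2 ratios was 1.47 in *C1orf210*, 1.43 in *KLHL41*, and 1.40 in *EMP1* inside the limit and 1.502 in *RAET1L*, 1.52 in *FLNA*, and 1.53 in *MYL9* outside it. At the floor on EGF 4 h, *KLHDC8A* (1.04 TPM), *VWA5B2* (1.12 TPM), and *SRRM3* (1.16 TPM) were inside, whereas *MTNR1A* (0.940 TPM), *CRHR1* (0.858 TPM), and *NKAIN4* (0.825 TPM) were outside.

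The 113 genes spanned a wide range of levels. At EGF 4 h, 48 of them exceeded 10 TPM and 8 exceeded 100 TPM, and in CSS 53 were below 1 TPM and 17 below 0.1 TPM. *ATP1B1*, which encodes a subunit of the sodium-potassium pump, was the highest. Its TPM in the 4 CSS libraries was 159.48, 159.62, 107.88, and 98.72, at EGF 4 h it was 464.29, 453.46, 316.95, and 298.76, and at NRG-1 4 h it was 451.97, 401.83, 280.66, and 220.7. Batch 2 was lower than batch 1 in all 3 groups, and every 4 h library was above every CSS library. The counts of this gene were not whole numbers in any library, which means that RSEM had divided reads between it and other sequences.

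Next came *ATP2B1*, a calcium pump of the plasma membrane, at 73.1 ± 5.2 TPM in CSS, 75.9 ± 4.6 at EGF 1 h, 256 ± 12 at EGF 4 h, and 228 ± 36 at NRG-1 4 h (SD, n = 4). *CBFB*, the partner of the RUNX transcription factors, went from 34.2 ± 1.6 TPM in CSS to 143 ± 21 at EGF 4 h and 127 ± 26 at NRG-1 4 h. *ERBB2IP*, an adaptor that binds HER2, was at 40.1 ± 3.3 TPM in CSS, 125 ± 6.3 at EGF 4 h, and 115 ± 17 at NRG-1 4 h. These genes were already well expressed in CSS.

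*CORO1C*, an actin-binding coronin, *PDLIM5*, a scaffold at actin filaments, and *C1orf210*, whose role is not given here, belonged to the same class, with EGF 4 h means of 118 ± 8.5, 92.0 ± 7.5, and 78.1 ± 5.2 TPM over CSS means of 33.6 ± 2.7, 28.2 ± 3.0, and 26.7 ± 2.8 TPM. *RECQL4*, a DNA helicase, had a lower start and a larger rise, from 11.8 ± 2.5 TPM in CSS to 107 ± 17 at EGF 4 h and 90.1 ± 26 at NRG-1 4 h.

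**Figure D2:**
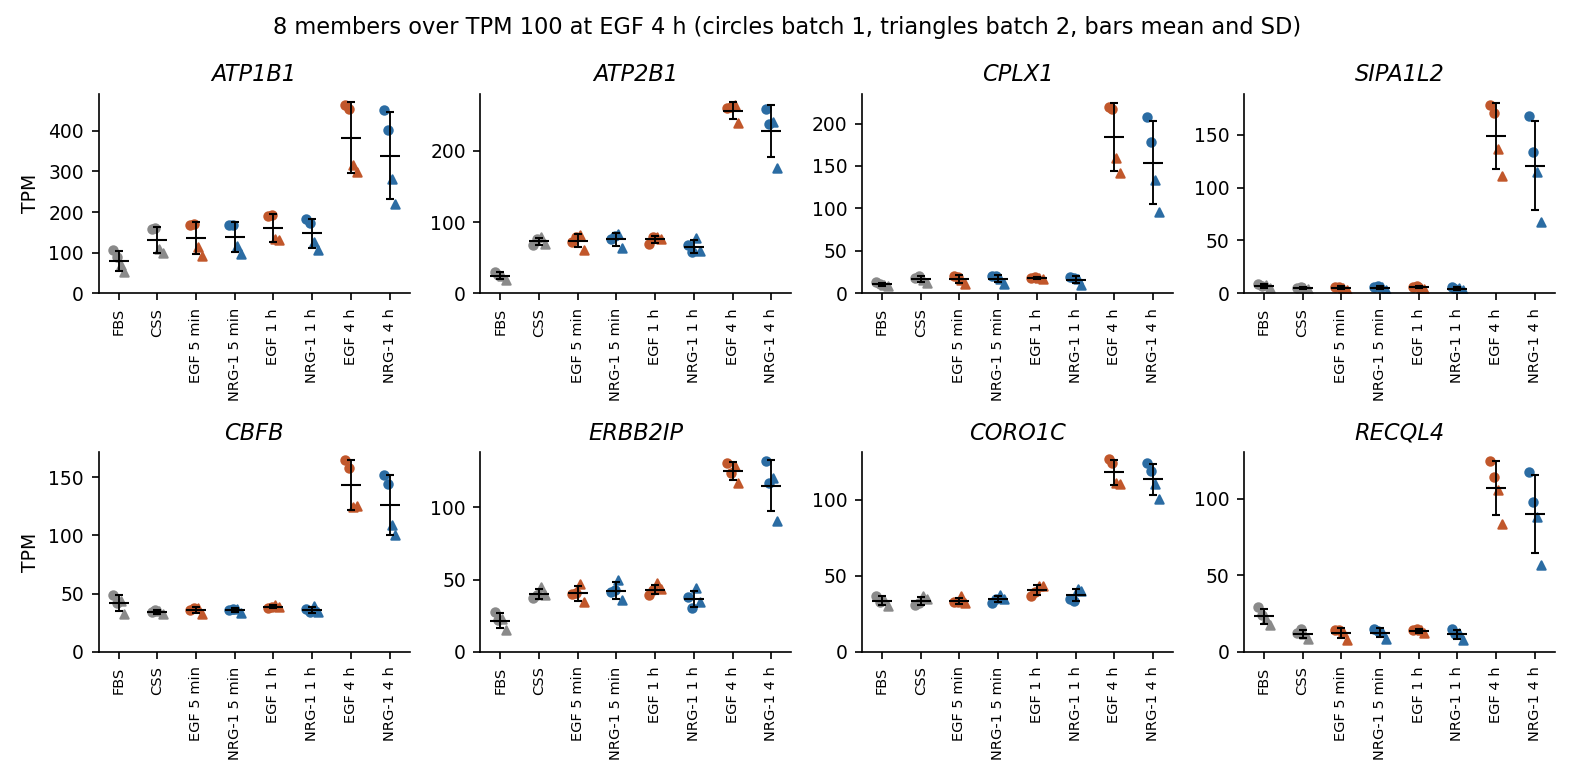
TPM in each library for the 8 genes over 100 TPM at EGF 4 h, with circles for batch 1, triangles for batch 2, grey for FBS and CSS, orange for EGF, and blue for NRG-1, where black bars give the mean and SD (n = 4). Levels at 5 min and 1 h lie near those of CSS and both 4 h groups lie above all others, from *ATP1B1* (383 TPM at EGF 4 h) to *RECQL4* (107 TPM).

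The steepest member was *SIPA1L2*, which encodes a regulator of the small GTPase RAP. Its TPM was 5.28, 6.11, 4.76, and 3.75 in CSS, 6.4, 6.61, 5.21, and 4.5 at EGF 1 h, and 178.35, 170.73, 136.49, and 111.45 at EGF 4 h. At NRG-1 1 h it was 5.79, 4.48, 4.9, and 2.84, and at NRG-1 4 h it was 168.03, 133.47, 115.13, and 67.32. The 1 h values of both ligands overlapped those of CSS, and the ratio to CSS was 27.4 with EGF and 22.2 with NRG-1 at 4 hours.

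*CPLX1*, a complexin that regulates vesicle fusion and is best known from synapses, was at 16.5 ± 3.6 TPM in CSS and 17.9 TPM at EGF 1 h. At 4 hours it reached 219.69, 217.47, 159.71, and 141.33 TPM with EGF and 207.75, 178.3, 133.97, and 96.21 TPM with NRG-1, or 10.9 and 9.07 times CSS. The ranges of the 2 ligands overlapped.

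Ratios above 10 were found in 8 genes with EGF (*SIPA1L2*, *PGBD5*, *ARAP2*, *MALL*, *LHFPL2*, *CPLX1*, *TCF7*, and *IGF2BP2*) and in 3 with NRG-1 (*SIPA1L2*, *PGBD5*, and *ARAP2*). *PGBD5*, derived from a transposase, rose from 1.40 ± 0.38 TPM in CSS to 24.1 ± 8.6 at EGF 4 h, and its batch 1 libraries (32.28 and 30.74 TPM) were well above those of batch 2 (18.05 and 15.35 TPM). *ARAP2*, a GTPase-activating protein for ARF proteins, rose from 0.778 ± 0.087 to 15.6 ± 2.1 TPM, and *MALL*, a membrane protein of the MAL family, from 2.63 ± 0.33 to 34.8 ± 1.0 TPM. *IGF2BP2*, an RNA-binding protein, lay between 0.02 and 0.03 TPM in the CSS libraries and was at 6.61, 6.15, 3.48, and 3.38 TPM at EGF 4 h. *MAN1A1*, a mannosidase that trims N-glycans, and *TGFB1* completed the 10 largest ratios, at 9.87 and 8.96.

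In 4 genes, no CSS library held more than 3 counts, so that a fold can only be bounded from below, against 3 counts per library. *PDCD1*, which encodes the immune checkpoint receptor PD-1, had 0 counts in each CSS library, 139, 162, 139, and 86 at EGF 4 h, and 149, 126, 114, and 97 at NRG-1 4 h, at least 42.8-fold and 43.8-fold higher. PD-1 is best known from lymphocytes. The summed TPM of 5 leukocyte markers was 0.07 to 0.17 at EGF 4 h and 0.08 to 0.17 at NRG-1 4 h, against 0.11 to 0.27 in CSS. *PDE1B*, a phosphodiesterase, had 3, 2, 2, and 2 counts in CSS, against 174 to 344 at EGF 4 h and 176 to 398 at NRG-1 4 h, a rise of at least 82.6-fold and 104-fold. *GSDMA*, a gasdermin, was at least 42.5-fold and 59.6-fold higher, and *THEG* at least 22.9-fold and 29.4-fold higher. Both were higher with NRG-1 than with EGF by mean, but neither difference passed the test between the ligands (adjusted *P* = 0.388 and 0.523 by edgeR).

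By role, the genes were sorted into groups of 3 to 28, which were drawn up after the values had been seen. Ligands, receptors, and coreceptors made up 13. *TGFB1* encodes the cytokine TGF-β1 and *TGFBR2* one of its receptors, and both were near 0 in CSS and rose together. *TGFB1* was at 0.07, 0.04, 0.08, and 0.09 TPM in CSS, 0.07, 0.08, 0.08, and 0.1 at EGF 1 h, 5.17, 4.65, 4.42, and 4.19 at EGF 4 h, and 5.74, 4.39, 4.33, and 3.13 at NRG-1 4 h. *TGFBR2* was at 0.29, 0.29, 0.27, and 0.18 TPM in CSS, 5.58, 5.06, 4.7, and 4.15 at EGF 4 h, and 4.91, 4.46, 4.29, and 2.86 at NRG-1 4 h. No library of the other time points came near these levels.

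Other members of this group were *BMP6*, a ligand of the same superfamily, *IGF2*, an insulin-like growth factor, *MET*, the receptor of hepatocyte growth factor, *FGFR2*, a fibroblast growth factor receptor, and *CHRM3* and *GPR158*, which encode G protein-coupled receptors. Their ratios at EGF 4 h were 3.49, 6.39, 5.33, 2.90, 6.89, and 4.46, and their mean levels there were 4.20 ± 1.3, 3.69 ± 0.70, 4.55 ± 0.55, 2.46 ± 0.66, 5.01 ± 0.40, and 30.7 ± 6.1 TPM. Reads of *BMP6* and *GPR158*, and in a minority of libraries those of *IGF2*, were partly shared with other sequences by the fractions in their counts. *FGFR2* was split by batch, at 3.11 and 2.93 TPM in batch 1 and 1.98 and 1.8 TPM in batch 2 at EGF 4 h.

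Adaptors, kinases, and regulators of small GTPases made up 14. Beside *SIPA1L2*, *ARAP2*, and *ERBB2IP*, they included *GAB2* and *SHC4*, adaptors of receptor tyrosine kinases (3.23 and 3.73 times CSS at EGF 4 h), the kinases *MAP3K5* (5.60 times) and *TNIK* (5.22 times), *RAB31*, a GTPase of membrane traffic (5.07 times), *SPHK1*, which makes the lipid mediator sphingosine 1-phosphate (6.46 times), and *NEDD4*, a ubiquitin ligase (3.13 times). *ARHGAP42*, a GTPase-activating protein, was at 3.30 times. *TMEM133* (2.99 times) lies in *ARHGAP42* in current RefSeq, so that the 2 symbols may report 1 gene.

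Transcription factors and cofactors made up another 14. *PPARG*, a nuclear receptor for fatty acids, was at 7.8, 7.98, 5.64, and 5.58 TPM in CSS and 26.71, 27.2, 16.76, and 17.29 at EGF 4 h, and the 2 batches stood apart in both groups. *ELF4*, an ETS family factor, went from 1.96 ± 0.33 to 7.61 ± 1.2 TPM. *EPAS1*, which encodes HIF-2α, went from 1.12 ± 0.26 to 6.67 ± 1.4 TPM, and *EGLN3*, a hydroxylase that marks HIF-α proteins for degradation, from 9.49 ± 0.62 to 73.3 ± 6.4 TPM. *TCF7*, a partner of β-catenin, *MYB*, *RELB* of the NF-κB family, *NPAS1*, *NPAS2*, and *BATF3* were also among the 14, with ratios from 2.85 in *BATF3* to 10.4 in *TCF7*.

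Cytoskeletal proteins made up 12, among them *CORO1C*, *PDLIM5*, the unconventional myosin *MYO1E* (4.56 times CSS at EGF 4 h), the tubulin *TUBB6* (5.88 times), and the stathmin *STMN3* (5.83 times). Enzymes numbered 9 and pumps, channels, and transporters 7. Adhesion, matrix, and other membrane proteins numbered 8, among them *TNC*, the matrix protein tenascin C (2.90 times), and *LHFPL2* (11.0 times). Proteins of vesicle and membrane traffic numbered 5 and RNA-binding proteins 3, and 28 had other or uncertain roles. The enzymes, led by *MAN1A1*, *RECQL4*, and *METTL7B*, had the highest median ratio of these groups, at 6.81 with EGF and 4.75 with NRG-1.

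Lists of genes were drawn from general knowledge of growth factor responses in epithelial cells, with earlier results of these data known. Their counts are therefore a description. Of 9 lists, 5 held members and the members on them numbered 9, namely *TGFB1* among secreted cytokines and growth factors, *TGFBR2*, *MET*, and *FGFR2* among their receptors, *SPHK1* among lipid mediator genes, *RAB31* among regulators of small GTPases, and *PPARG*, *ELF4*, and *EPAS1* among late transcriptional regulators. In that order, members were 1 of 38, 3 of 45, 1 of 21, 1 of 51, and 3 of 44 list genes tested. Over all genes tested, they were 113 of 16995. The other genes of each list were counted apart, by the edgeR quasi-likelihood test against CSS, as past both limits where the adjusted *P* value was under 0.05 and the log2 change larger than 1. Over all 16995 genes tested, 5.86% were higher by these limits at EGF 4 h, 4.87% at NRG-1 4 h, 1.46% at EGF 1 h, and 0.806% at NRG-1 1 h, and taking the members out leaves fewer genes that could rise only at 4 hours.

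Of 41 other late transcriptional regulators, 15 were higher and 2 lower at EGF 4 h, 13 higher and 1 lower at NRG-1 4 h, 10 higher and 1 lower at EGF 1 h, and 6 higher and 0 lower at NRG-1 1 h. *FOSL1*, a component of AP-1, was at 0.0866 ± 0.011 CPM (counts scaled to the library total, SD, n = 4) in CSS, 4.43 ± 0.17 at EGF 1 h, and 1.22 ± 0.15 at EGF 4 h, so that it was highest at 1 hour. *HMGA2* also passed, on 0 to 6 counts per library at EGF 4 h. Of 50 other regulators of small GTPases, 10 were higher and 1 lower at EGF 4 h, 9 and 1 at NRG-1 4 h, and 3 and 0 at 1 hour of either ligand. *RRAD* and *RGS4* rose most, by 3.13 ± 0.34 (SE) and 2.82 ± 0.41 on the log2 scale at EGF 4 h (adjusted *P* = 6.88e-09 and 1.23e-06, edgeR).

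Of 42 other receptors, 8 were higher at EGF 4 h, 7 at NRG-1 4 h, 4 at EGF 1 h, and 2 at NRG-1 1 h, and 0 were lower. *PDGFRA* and *IL1RL1*, with at most 2 counts in any CSS library, were at least 7.75-fold and 8.96-fold higher at EGF 4 h. Of 37 other secreted factors, 5 were higher at 4 hours of either ligand, 3 were lower with EGF, and 2 were lower with NRG-1. At 1 hour, 7 were higher and 0 lower with EGF and 5 higher and 1 lower with NRG-1. *BMP7* was at 0.148 ± 0.052 CPM in CSS, 0.108 ± 0.035 at EGF 1 h, and 1.92 ± 0.32 at EGF 4 h (log2 fold change 3.68 ± 0.29, adjusted *P* = 9.63e-12, edgeR). *CXCL8*, which encodes interleukin 8, was instead highest at 1 hour, at 1.67 ± 0.56 CPM with EGF against 0.137 ± 0.035 at 4 hours.

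The remaining lists held 1 member at most. Of 16 keratins and cornified envelope genes, 5 were higher at EGF 4 h, 4 at NRG-1 4 h, and 0 at 1 hour of either (3 and 2 passed on the adjusted *P* value alone), with *KRT20* at 1.44 ± 1.2, 3.42 ± 1.9, and 31.1 ± 3.7 CPM in CSS, EGF 1 h, and EGF 4 h. *KRT15* passed on at most 18 counts. Of 28 junction genes, 3 were higher at 4 hours of either ligand and 1 was lower with EGF, and 1 was higher at 1 hour of either. *CLDN1* was at 0.241 ± 0.033, 1.11 ± 0.32, and 4.95 ± 0.97 CPM in CSS, EGF 1 h, and EGF 4 h. Of 20 other lipid mediator genes, 5 were higher at EGF 4 h, 4 at NRG-1 4 h, and 2 at 1 hour of either, led by *PTGER2*, at least 9.61-fold higher at EGF 4 h, and *LPAR1*, on at most 7 counts. Of 22 annexin, S100, and calpain genes, *ANXA2* alone passed, at 4 hours of both ligands (without a filter on low counts 3 genes of this list passed with EGF and 2 with NRG-1), with 0.234 ± 0.070 CPM in CSS and 1.14 ± 0.15 at EGF 4 h. Of 28 nutrient transporters, 1 was higher with EGF at 4 hours and 0 with NRG-1, and 1 was lower with each. At 1 hour, 0 of these 28 genes and 0 of the 22 annexin, S100, and calpain genes passed both limits by edgeR, and on the adjusted *P* value alone 7 transporters were higher with EGF, 6 with NRG-1, and 0 of the annexin group were.

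The ligands were also compared with each other, EGF 4 h against NRG-1 4 h. The libraries are those the rule used, each ligand against CSS, so that the counts are a description of the chosen genes. Over all genes tested, 5.86% were higher at EGF 4 h than in CSS past both limits. The shares over all genes given beside the counts are thus mostly of genes without such a rise. The rule set both ligands the same limits at 4 hours except for its floor of 1 TPM at EGF 4 h, without which it took 116 genes. The delayed genes were higher with EGF more often than with NRG-1, and by a small amount. The log2 difference was above 0 in 94 of 113 genes (83.2%, against 48.6% of all genes tested), with a median of 0.22 (all genes −0.01) and a range from −0.47 to 1.43. Past an adjusted *P* value of 0.05 and a log2 difference of 1, there was 1 gene (0.885% of the 113, against 0.171% of all genes tested). On the adjusted *P* value alone there were 21, all higher with EGF (18.6% of the 113, against 1.66% of all genes), although under limma on log2(TPM + 1) 16 of the 19 that passed were higher with EGF and the other 3 lower. Unadjusted *P* values below 0.05 were found in 48 of the 113 and in 1906 of the 16995 genes tested.

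The direction was shared by the batches. By mean TPM plus 0.5, EGF was the higher in 93 of 113 genes with all libraries, 85 in batch 1, and 99 in batch 2, with median ratios of 1.15, 1.10, and 1.21. Without replicate 4 of NRG-1 4 h, EGF was the higher in 75 genes with a median ratio of 1.06, and 15 genes passed on the adjusted *P* value alone, again all with EGF higher, of which 14 were among the 21. That count was 8 without replicate 1 and 13 without replicate 2 of EGF 4 h, 31 in batch 1 alone, 1 in batch 2 alone, and 5 without the batch term. The share of all genes passing in these runs was not counted, so that these counts have no background beside them. Every EGF 4 h library exceeded every NRG-1 4 h library in 16 genes (14.2%, against 1.89% of all genes tested), and the reverse held in 0 (1.36% of all genes). Without replicate 4 of NRG-1 4 h, every EGF library exceeded the other NRG-1 libraries in 16 genes as well (2.56% of all genes). In 45 comparable genes, with the same symbols left out, that met the limits at 4 hours but were also at least 1.5 times CSS at 1 hour of 1 or both ligands, 41 were tested, the difference at 4 hours was above 0 in 35, and its median was 0.30. A higher level with EGF was thus found in those genes too.

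The 1 gene past both limits was *PAEP*, which encodes the secreted lipocalin glycodelin. It was at 0.07, 0.0, 0.12, and 0.06 TPM in CSS, 3.14, 3.64, 2.54, and 2.75 at EGF 4 h, and 1.11 ± 0.14 at NRG-1 4 h (SD, n = 4). All EGF libraries were above all NRG-1 libraries, with EGF higher by 1.43 ± 0.31 (SE) on the log2 scale (adjusted *P* = 0.0102 by edgeR). The adjusted *P* value was 0.0533 without replicate 1 of EGF 4 h, 0.0786 without replicate 2, 0.624 in batch 2 alone, and 0.0789 without the batch term. Under limma on log2(TPM + 1) the difference was 0.92, short of the fold limit. Without replicate 4 of NRG-1 4 h it was 1.40 ± 0.34 (adjusted *P* = 0.0416).

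The other genes that passed on the adjusted *P* value alone had smaller differences than *PAEP*, with smaller errors. *EGLN3*, *AIM1*, *TSPAN5*, and others named here for the ligand difference on the adjusted *P* value alone were chosen after their values had been seen. *EGLN3* had 78.76, 78.96, 66.78, and 68.81 TPM at EGF 4 h and 54.67, 53.69, 42.1, and 37.51 at NRG-1 4 h, which did not overlap (log2 difference 0.62 ± 0.08, adjusted *P* = 1.96e-05, edgeR). *MET* had 5.08, 4.8, 4.53, and 3.79 TPM with EGF and 3.1, 2.66, 2.26, and 1.95 with NRG-1, again without overlap (0.86 ± 0.12, adjusted *P* = 3.92e-05, edgeR). *MALL* had 35.57, 35.0, 35.29, and 33.28 TPM with EGF and 24.89, 22.68, 22.64, and 17.27 with NRG-1 (0.65 ± 0.11, adjusted *P* = 0.000581, edgeR). Without replicate 4 of NRG-1 4 h, the log2 differences of *EGLN3*, *MET*, and *MALL* were 0.60, 0.90, and 0.58 (adjusted *P* = 0.000185, 0.000106, and 0.00402).

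The other 17 had log2 differences from 0.18 in *ATP1B1* to 0.93 in *KLHL41*, a member of the kelch family of muscle. Among them were *EMP1*, an epithelial membrane protein (0.91 ± 0.21), *AIM1* (0.67 ± 0.11), *TSPAN5*, a tetraspanin (0.40 ± 0.07), *KIAA1462*, which encodes a junction protein (0.62 ± 0.13), *IGF2BP2* (0.57 ± 0.11), *GPR158* (0.51 ± 0.11), *MAN1A1* (0.40 ± 0.08), *LHFPL2* (0.42 ± 0.10), and *RAB31* (0.39 ± 0.10). Without replicate 4 of NRG-1 4 h, 7 of the 17 no longer passed, *ATP1B1*, *ATXN1*, *EMP1*, *HOMER1*, *LHFPL2*, *RAB31*, and *TNIK*, with adjusted *P* values from 0.0719 to 0.150. With all libraries, *SIPA1L2* (0.31, adjusted *P* = 0.312), *CPLX1* (0.26, adjusted *P* = 0.255), *CORO1C* (0.03, adjusted *P* = 0.915), and *TGFB1* (0.06, adjusted *P* = 0.907) did not pass, which does not show that they were equal.

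**Figure D3:**
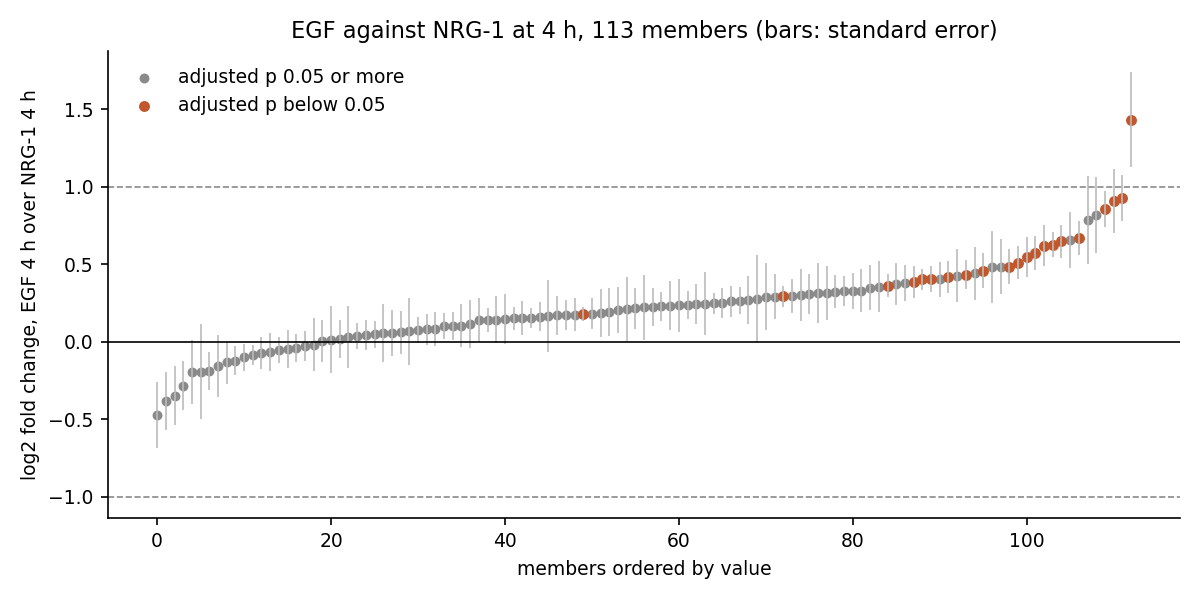
Log2 fold change of EGF 4 h over NRG-1 4 h for each of the 113 genes, ordered by value, with standard errors from the edgeR fit and dashed lines at a log2 change of 1 in each direction. The 94 genes above 0 include all 21 with an adjusted *P* value below 0.05 (orange), and 1 of these, *PAEP* at 1.43, lies beyond 1.

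The rule held both ligands below 1.5 times CSS at 1 hour, which left little room for a difference between them, and the counts at that time are a description. At 1 hour, 0 of 113 genes differed between EGF and NRG-1 on the adjusted *P* value (background 1.06%) or with the fold limit (0.171%) by edgeR, and with the fold limit 0 did so by DESeq2 or limma. At an unadjusted *P* value below 0.05 there were 9, and 1397 of the 16995 genes tested. The difference was above 0 in 85 genes (75.2%, against 49.9% of all genes), with a median of 0.11. The smallest adjusted *P* value was that of *EMP1*, at 0.28, 0.3, 0.45, and 0.29 TPM with EGF and 0.11, 0.14, 0.2, and 0.14 with NRG-1 (log2 difference 1.04 ± 0.30, adjusted *P* = 0.131). In CSS *EMP1* was at 0.09, 0.08, 0.11, and 0.1 TPM, so that all EGF 1 h libraries were above all CSS libraries although its ratio with 0.5 TPM added was only 1.40. With 0.1 in place of 0.5, the rule took 149 genes, 108 of them among the 113.

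Within the first 5 minutes, a comparison with CSS, whose libraries the rule had also used, found 0 of 113 genes with EGF (0.00588% of all genes tested) and 0 with NRG-1 (0.0% of all genes), by edgeR, DESeq2, and limma. At an unadjusted *P* value below 0.05 there were 0 and 4. The median log2 changes were 0.0021 and 0.019.

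FBS provides a view of the same genes without added ligand and with androgen in the medium. FBS differs from the other groups in its whole serum, so that androgen and the other parts of serum cannot be told apart. Against the mean of both 5 min groups, which the rule did not use, the delayed genes were more often lower than higher in FBS, with a median log2 change of −0.36 (all genes −0.01) and 35 of 113 above 0 (31.0%, against 48.9%). Replicate 4 was the lowest of its group for 81 genes in FBS, 76 at EGF 5 min, and 65 at NRG-1 5 min. Its medians were 0.75, 0.756, and 0.826 times the group mean. The median change and the share above 0 are not given here without these libraries. Past both limits were 23 of 113 (20.4%, against 9.06% of all genes tested), of which 19 were lower (background 3.87%) and 4 higher (5.18%). On the adjusted *P* value alone there were 72 (60.1% of all genes passed), 56 lower and 16 higher. Of the 45 genes also raised at 1 hour, 41 were tested. Their median was −0.32, with 12 above 0 (29.3%), and 2 passed both limits, both lower. A shift to lower levels in FBS was thus found in those genes too.

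Against CSS the values were similar, and the CSS libraries are those the rule used. There, 22 genes passed (8.71% of all genes), 19 lower (3.8%) and 3 higher (4.91%), and 66 passed on the adjusted *P* value alone (52.7%). Every CSS library exceeded every FBS library in 37 genes (32.7%, against 21.3% of all genes tested), and the reverse held in 4 (3.54%, against 10.2%). In all 113 genes, the EGF 4 h mean exceeded the FBS mean. This count is a description, since the rule chose the genes for a high EGF 4 h mean relative to CSS. Their highest ratio of FBS to CSS was 1.99, below the limit that the rule set at 4 h.

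Among genes of low level, *NXPE1* had 1, 2, 0, and 1 counts in FBS and 7 to 27 in the 5 min libraries, at least 6.70-fold lower against 3 counts per library, and *KLHDC8A* had 1, 0, 0, and 1 counts against 3 to 12, at least 2.57-fold lower. *ENTPD8*, *FAM131B*, and *LMNTD1* fell by 2.21, 1.85, and 1.83 on the log2 scale (SE 0.33, 0.20, and 0.30). Under limma on log2(TPM + 1), these 5 genes were short of the fold limit, with changes from −0.44 in *FAM131B* to −0.09 in *KLHDC8A*. The clearest case was *MAN1A1*. It was at 0.94, 0.85, 0.93, and 0.5 TPM in FBS, 5.54, 5.97, 6.64, and 5.8 in CSS, 58.14, 55.14, 74.2, and 66.53 at EGF 4 h, and 50.86, 42.52, 54.89, and 40.13 at NRG-1 4 h. The groups did not overlap, and FBS was below the 5 min groups by a log2 change of −2.69 ± 0.09 (adjusted *P* = 6.25e-20, edgeR).

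Among genes of higher level, *ATP2B1* was at 30.5, 25.85, 24.82, and 18.11 TPM in FBS, below all libraries of the other groups (−1.38 ± 0.07 against 5 min, adjusted *P* = 2.27e-16, edgeR). At a level near 0, *TGFB1* was also lower in FBS, at 0.02, 0.04, 0.02, and 0.01 TPM (−1.40 ± 0.43, adjusted *P* = 0.00673, edgeR). Its 5 min libraries ran from 0.03 to 0.11 TPM. Of the other genes on the fixed lists, *EPAS1* passed as lower (−1.09 ± 0.11, adjusted *P* = 1.28e-09), whereas *TGFBR2* (−0.37), *MET* (−0.80), *FGFR2* (−0.96), *RAB31* (−0.54), and *PPARG* (−0.50) passed on the adjusted *P* value but not the fold limit, *SPHK1* did so as higher (0.43), and *ELF4* passed neither (−0.25, adjusted *P* = 0.0857).

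The 4 genes higher in FBS were *GPR158*, *RECQL4*, *TCF7*, and *BATF3*. *GPR158* was at 18.58, 13.62, 12.95, and 8.45 TPM in FBS, above all CSS and 5 min libraries, where CSS ran from 5.46 to 7.32 and the 5 min libraries from 4.2 to 7.9 (1.246 ± 0.09 for FBS over 5 min, adjusted *P* = 1.49e-12, edgeR). *RECQL4* was at 29.47, 24.32, 21.47, and 17.58 TPM in FBS (1.14 ± 0.09, adjusted *P* = 3.14e-12). *TCF7* and *BATF3* had log2 changes of 1.11 ± 0.22 and 1.03 ± 0.23, but in batch 2 alone these were 0.69, short of the fold limit, and 0.90 (adjusted *P* = 0.0708). *BATF3* also fell short of the fold limit without replicate 4 of FBS (0.96), replicate 3 of EGF 5 min (0.97), or replicate 2 of NRG-1 5 min (0.92). Under limma on log2(TPM + 1), 0 of the 4 passed both limits, with differences from 0.27 in *TCF7* to 0.92 in *GPR158*, whereas *MAN1A1* passed under each alternative run.

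**Figure D4:**
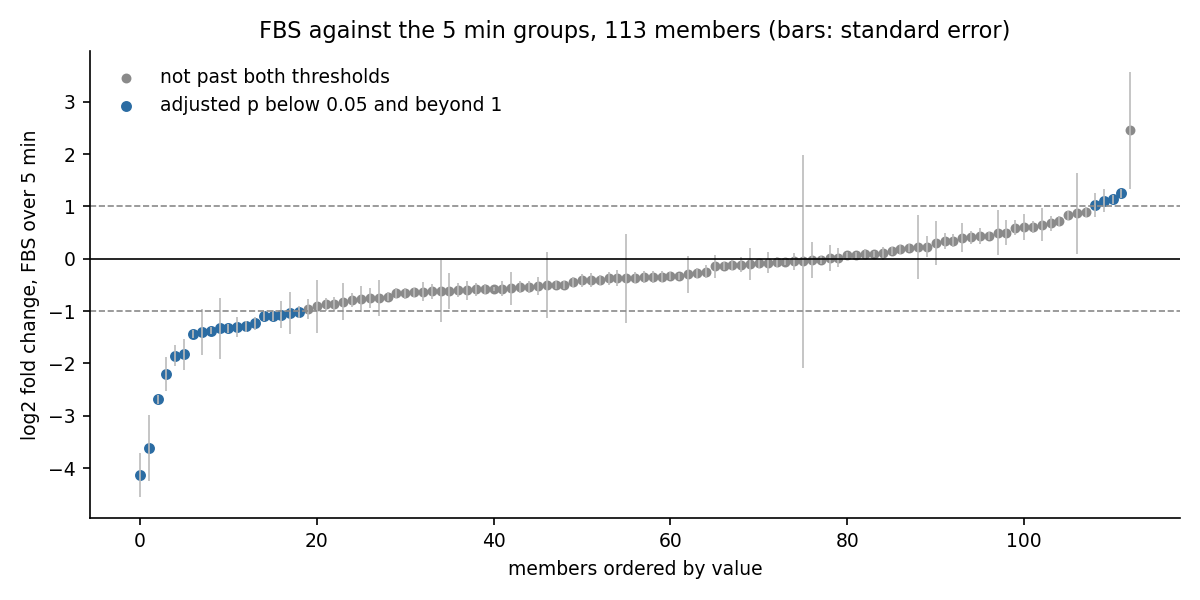
Log2 fold change of FBS over the mean of the EGF 5 min and NRG-1 5 min groups for each of the 113 genes, ordered by value, with standard errors from the edgeR fit and dashed lines at a log2 change of 1 in each direction. The 23 genes past both limits (blue) are 19 lower in FBS, down to *NXPE1*, and 4 higher, up to *GPR158* (1.246), while the grey point at the far right is *GSDMA* (adjusted *P* = 0.0626).

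Applied to each batch alone, the rule took 143 genes in batch 1 and 92 in batch 2, of which 34 and 6 were not among the 113. It was met by 109 of the 113 in batch 1 alone and by 86 in batch 2 alone, by 84 in both, and by *C1orf210* and *KLHL41* in neither, since both passed 1.5 times at EGF 1 h in batch 1 (1.51 and 1.58) and fell below 2.5 times at NRG-1 4 h in batch 2 (2.33 and 2.31). Every gene was at or above 2 times CSS at both ligands in batch 1. In batch 2 the genes below 2 times were *TCEAL2* at EGF 4 h (1.77 times) and *TCEAL2*, *TNC*, and *BAI1*, an adhesion receptor, at NRG-1 4 h (1.99, 1.93, and 1.76 times). *SRRM3* (2.06 times), *KIAA1462*, and *FGFR2* (both 2.17 times) were also below 2.5 times there at NRG-1 4 h, whereas in batch 1 *LIPH*, a phospholipase, was below at both ligands (2.37 and 2.33 times).

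One property that the rule did not use was the size of the genes. Gene span, from the first to the last base of the gene in RefSeq GRCh38.p14, was found for 111 of the 113 genes by symbol. Its median was 50.6 kb (20.8 to 155 between the quartiles), against 27.9 kb (10.4 to 71.1) for 16462 genes tested and 28.8 kb for those of at least 1 TPM at EGF 4 h. In the 45 genes that were also at least 1.5 times CSS at 1 hour, the median was 9.77 kb. The reverse rule, with the same symbols left out, chose 14 transient genes. It asked for at least 2.5 times CSS at 1 hour of both ligands, with at least 1 TPM at EGF 1 h, and below 1.5 times at 4 hours. Their median was 9.14 kb. Among them were the small nucleolar RNA genes *SNORA17* (0.133 kb) and *SNORA72* (0.132 kb), which lower this median.

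Of the delayed genes, 44 (39.6%) spanned more than 100 kb, against 18.0% of genes tested, 3 of the 45 (6.67%), and 0 of the 14. Those under 20 kb were 26 (23.4%), against 40.8%, 32 (71.1%), and 9 (64.3%). *CHRM3* (529 kb), *ATXN1* (462 kb), *GPR158* (427 kb), and *TNIK* (402 kb) were among the longest, and *TMEM158* (1.82 kb) and *TCEAL2* (2.03 kb) among the shortest. *TMEM133* was matched to *ARHGAP42* (307 kb), so that this span is counted under both symbols. The time a polymerase needs to cross such spans was not measured, and its part in the timing was not tested.

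**Figure D5:**
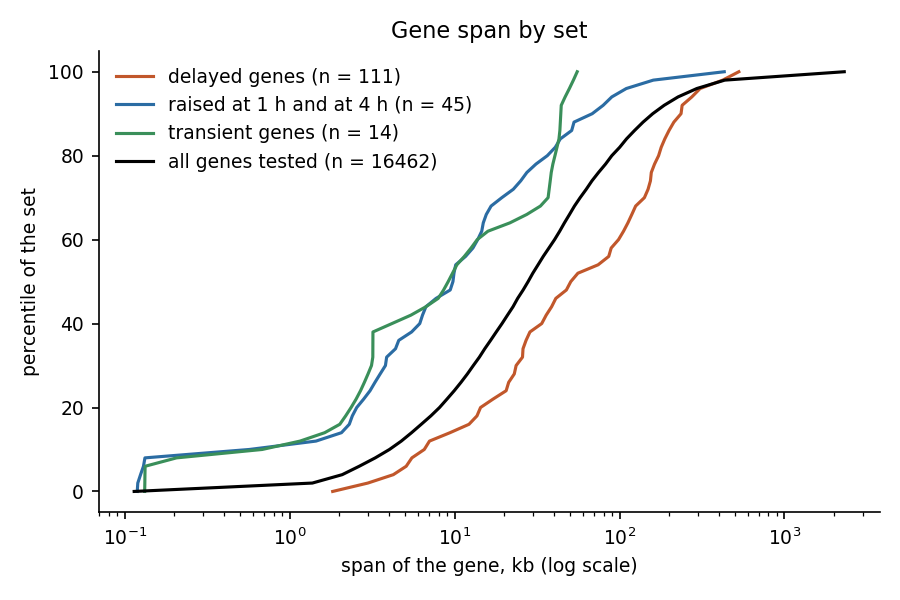
Span of the gene in kb (log scale) at each percentile of 4 sets, the 111 delayed genes with a span (orange), the 45 genes raised at 1 h and at 4 h (blue), 14 transient genes (green), and 16462 genes tested (black). The curve of the delayed genes lies to the right of the others over most of its length (median 50.6 kb, against 9.77, 9.14, and 27.9 kb).

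Promoter sequence could be examined for 95 of the 113 genes (84.1%) in windows of 250 bases before to 50 bases after the start in RefSeq GRCh38.p14, and for 12861 of all genes tested. These are 75.7% of the genes tested, under the 80% needed to compare the sets, so that a comparison of base composition is void, and so it is for the transient genes, with windows for 9 of 14. Shares of windows with a motif, on either strand, are given as a description. The window of *ARHGAP42*, which held the ETS letters, is counted under *TMEM133* too. The AP-1 letters TGANTCA were found in 11 of 95 windows (11.6%, against 4.95% of the 12861) and the CArG box of serum response factor in 5 (5.26%, against 1.10%), namely those of *MYO1E*, *ATXN1*, *TCF7*, *CITED1*, and *LMNTD1*. The STAT letters TTCNNNGAA were in 5 (5.26%, against 6.44%), the ETS letters CCGGAAGT in 4 (4.21%, against 7.61%), the EGR letters GCGTGGGCG in 3 (3.16%, against 1.28%), the CRE letters TGACGTCA, some of which overlap AP-1-like letters, in 1 (1.05%, against 2.95%), the E-box CACGTG in 8 (8.42%, against 9.84%), and the TATA letters TATAAA in 6 (6.32%, against 6.73%).

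Among the 11 windows, 10 held the AP-1 letters before the start, those of *C1orf210*, *NEDD4*, *KIAA1462* (*JCAD* in RefSeq), *TOR4A*, *SDCBP2*, *LMNTD1*, *PAEP*, *SHC4*, *EMP1*, and *BOC*. The 4 of highest level at EGF 4 h are shown as examples of the motif found in the largest share of these windows, with 30 bases on either side of the AP-1 letters, which are in capitals, and read from 5′ to 3′ on the strand of the gene. They lie at chr1:43285608-43285674 (minus strand), chr15:55917249-55917315 (minus), chr10:30115567-30115633 (minus), and chr9:137277647-137277713 (plus) in GRCh38.p14, upstream of the start of each gene.
C1orf210: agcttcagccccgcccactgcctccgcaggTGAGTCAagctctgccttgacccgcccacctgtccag
NEDD4: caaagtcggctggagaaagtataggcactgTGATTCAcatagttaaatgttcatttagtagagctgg
KIAA1462: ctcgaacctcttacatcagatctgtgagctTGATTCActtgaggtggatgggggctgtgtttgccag
TOR4A: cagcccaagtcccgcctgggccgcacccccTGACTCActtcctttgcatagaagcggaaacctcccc
The AP-1 letters begin 63, 149, 109, and 49 bases before the start of these genes. Their ratios to CSS at EGF 4 h were 2.90, 3.13, 3.95, and 3.67, and *C1orf210* was the one nearest the limit at 1 hour. A match says only that the letters are present, and binding was not measured.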

How the data were processed

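Polyadenylated RNA of 32 libraries in 8 groups of 4 was sequenced by the authors. Per the labels and the submitters' processing notes, reads were trimmed with Trimmomatic 0.36 and aligned to hg19 with STAR 2.7.0f within RSEM, with strand taken into account (the annotation is not given in the sources used here). The deposited tables hold the expected counts that RSEM estimated for the authors, not normalized, and TPM for 25498 genes. RSEM divides reads that map to several genes, which leaves fractions in the counts of similar genes. Library totals ran from 63822654 to 92401724, with a median of 77866193. Replicates differed by more than counting noise, and no 2 libraries were copies of each other.

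Here, expected counts were rounded and 16995 genes remained after a filter that asked for 5 or more counts in 3 or more libraries. All 32 libraries entered a fit of group and batch by the edgeR 4.0.16 quasi-likelihood test (R 4.3.3) with TMM scaling, and *P* values were adjusted over all genes tested by Benjamini-Hochberg. The fit was tested on simulated counts. The group means of TPM that chose the genes used 0.5 as pseudocount. The members and the lists were chosen with earlier results of these data known. Alternatives included DESeq2 1.42.0, limma 3.58.1 on log2(TPM + 1) and log2(TPM + 0.1), other filters, each batch alone, and leaving out each library. Libraries with the same replicate number also share a batch by their labels. Their departures from the group means correlated above 0.1 in 112 of 112 pairs of libraries (r from 0.133 to 0.571). A shared batch alone could give such correlations, and libraries of unlike number within a batch were not compared. Whether replicate numbers pair the libraries therefore stays undecided, and the main fit did not use these numbers.

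Genes were named by a rule. It took the 10 of highest level and the 10 of largest ratio at EGF 4 h, those past both limits between ligands or at 5 min, up to 6 in each direction for FBS against 5 min, those next to a limit, those on a list, up to 6 that missed the limits in each batch, and for each list the 2 other genes with the largest rise among those past both limits with both ligands. Genes given for their role were added after their values had been seen. RefSeq GRCh38.p14 supplied gene spans and promoter windows and differs from the build of the alignment. *AIM1* and *AGPAT9* had no match by symbol. A gene that the rule would name is not reported here.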

Additional observations from a re-analysis of the deposited data

Results flagged for a closer look

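In groups of 4 libraries, a library stood apart from the others by Dixon's test in 4 of 212 groups of named genes, where chance alone gives about 11 (1 in 20). *C1orf210* was at 40.74 TPM in replicate 3 of NRG-1 1 h, against 34.18 to 35.22 in the other 3 libraries. *GPR158* and *PGBD5* were low in replicate 4 of NRG-1 5 min, at 4.2 TPM against 7.32 to 7.9 and at 0.98 TPM against 1.75 to 1.84. *ELF4* was at 1.3 TPM in replicate 4 of EGF 5 min, against 2.32 to 2.37. Replicate 4 was the lowest of its group for 76 of the 113 genes at EGF 5 min and 65 at NRG-1 5 min.

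*PAEP* differed between EGF and NRG-1 at 4 hours by a test of the difference itself (log2 difference 1.43, higher in 4 of 4 EGF libraries than in any NRG-1 library), which did not hold in batch 2 alone (adjusted *P* = 0.624, edgeR).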

How the results depend on the processing

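Between EGF and NRG-1 at 4 hours, 1 delayed gene passed both limits. Without the fold limit 21 did, in batch 1 alone 5, and 0 with at least 10 counts in every library, without the batch term, in batch 2 alone, or by limma on log2(TPM + 1) with or without a filter. Leaving out 1 library gave 0 to 4, with 0 without replicate 1 or replicate 2 of EGF 4 h and 4 without replicate 3. Alternatives for the 21 on the adjusted *P* value alone were added after seeing the data, and the count became 5 without the batch term, 1 in batch 2 alone, 6 by limma on log2(TPM + 0.1), and 8 (without replicate 1 of EGF 4 h) to 22 with 1 library left out. For FBS, the 22 against CSS and 23 against 5 min became 66 and 72 without the fold limit, 14 and 15 with at least 10 counts in every library, and 6 and 7 by limma on log2(TPM + 1) with or without a filter. With log2(TPM + 0.1) they were 13 (0 higher, 13 lower) and 16 (1 higher, 15 lower), and 18 to 23 and 18 to 25 with 1 library left out. A fit with the replicate number as a block gave 1, 22, and 23 and changed no call. For EGF against NRG-1 at 4 hours, it gave 31 on the adjusted *P* value alone. At 1 hour between ligands and at 5 minutes the counts stayed at 0 under each alternative run. The rule took 199 genes with a limit of 2 at 4 hours, 66 with 3, 64 with a floor of 5 TPM, and 103 to 129 with 1 library left out. Of the values of named genes under alternatives, 221 kept direction and side of the limits, 33 lost a limit, and 0 changed sign, and of the list counts 604 stayed within 1.5 times, 102 fell, and 14 rose. The causes were not tested, except that a larger pseudocount shrinks the changes of genes of low level by construction and a stricter filter tests fewer genes. Genes near 0 in CSS, 17 of them below 0.1 TPM, have the least certain ratios.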
